A study of Mus musculus with 8 samples.

Results

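The 10 genes described here are 7 Wnt ligands (Wnt2, Wnt2b, Wnt3, Wnt4, Wnt5a, Wnt6 and Wnt9a) and 3 R-spondins (Rspo1, Rspo2 and Rspo3), taken by their symbols from the 32285 genes of the count tables. They were followed through all 8 single-cell RNA-seq libraries of a mouse colon study and through the cell classes within those libraries. The libraries form 4 groups of 2, stroma and epithelium of assembloids and epithelium of organoids and of colon tissue. The purpose of the comparison was to locate the sources of Wnt and R-spondin transcripts in a culture that receives neither factor from its medium.

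All cells came from C57BL/6 mice, and the methods give young adult males for the study as a whole. An assembloid is a colon organoid surrounded in Matrigel by primary colon stromal cells, which had first been expanded on plastic in a medium with fetal bovine serum. Its medium left out the surrogate Wnt, CHIR-99021 (an inhibitor of the kinase GSK3 that switches on the canonical pathway), R-spondin 1 and noggin that the full organoid medium contains. Assembloid stroma is the EpCAM-negative fraction, from 2 mice, and no stroma freshly taken from tissue was among the libraries. Assembloid epithelium is the epithelial sample of the same kind of culture, organoid epithelium comes from organoids without stroma, and tissue epithelium from crypts isolated from the colon. The methods do not restate which medium the sequenced organoids were kept in. They call the 2 samples of a group biological replicates while the labels give only a number, so p-values measure the spread between these samples.

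Wnt ligands are secreted lipid-modified proteins that bind Frizzled receptors, with the co-receptors Lrp5 and Lrp6 in the canonical branch, where beta-catenin enters the nucleus and acts with TCF/LEF factors. R-spondins carry no such signal alone. They bind Lgr4, Lgr5 and Lgr6 and the ubiquitin ligases Rnf43 and Znrf3, which otherwise remove Frizzled from the cell surface, and so they amplify the response to a Wnt. In the colon both kinds of ligand are known to maintain the stem cells at the crypt base, and mesenchymal cells under the epithelium are a known source. Telocytes are mesenchymal cells marked by Foxl1 that lie close under the epithelium toward the crypt top, and trophocytes are Cd34-positive cells beneath the crypt base that make the BMP inhibitor Grem1.

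On the mouse genome build mm10 (GRCm38) the members lie on 8 chromosomes, with Wnt4 and Rspo1 both on chromosome 4 and Wnt3 and Wnt9a both on chromosome 11. Wnt4 occupies chr4:137277489-137299726 on the plus strand, Wnt2 chr6:17988940-18030585 on the minus strand, Wnt5a chr14:28504750-28527448 on the plus strand and Rspo3 chr10:29452416-29535867 on the minus strand. Rspo3 is overlapped by Gm20276 on the same strand and Wnt2b by Gm43846, so that some of their reads could be shared with these predicted genes. The promoter sequences below come from RefSeq (GRCm38.p6), in which 7 of the 10 members had an entry. Shown are those of the 3 members that were higher in telocyte-like than in trophocyte-like cells (results below) and had one, because they moved the same way in that comparison. Each runs 5′ to 3′ on the strand of the gene and is limited to the bases upstream of both the RefSeq and the GENCODE transcription start, and capitals mark matches to a searched motif on either strand. They are 104 bases for Wnt4 (chr4:137277385-137277488), 110 bases for Wnt2 (chr6:18030586-18030695) and 38 bases for Wnt2b (chr3:104961922-104961959).
Wnt4: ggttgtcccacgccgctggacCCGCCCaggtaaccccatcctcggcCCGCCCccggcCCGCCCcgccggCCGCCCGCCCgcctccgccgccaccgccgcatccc
Wnt2: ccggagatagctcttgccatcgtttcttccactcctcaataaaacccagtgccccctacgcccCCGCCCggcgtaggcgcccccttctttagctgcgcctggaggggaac
Wnt2b: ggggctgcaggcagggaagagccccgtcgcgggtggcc

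In the full window of 250 bases upstream of the RefSeq start, Wnt4 held 8 matches to the GC box GGGCGG and its window was 85.2% G and C. Wnt2b held 3 GC boxes and 1 CCAAT box with 80.8% G and C, and Wnt2 held 1 of each with 63.6%. Among all RefSeq promoters 32.7% held a GC box and 33.9% a CCAAT box. The TATA box TATAAA, the TCF/LEF core CTTTGA and the forkhead core TGTTTA were in none of the 7 windows, against 12.4%, 13.8% and 12.0% of all promoters.

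Counts are unique molecular identifiers (UMIs), each standing for one captured transcript, and levels are given as counts per 1000000 UMIs of a library or class (CPM). After removal of cells with fewer than 500 genes or more than 10% mitochondrial UMIs, the libraries held 4310 to 29410 cells and 36970661 to 187583982 UMIs. The 2 stromal libraries were counted with Cell Ranger 6.0.1 and the 6 epithelial ones with 7.1.0, so counting version and source cannot be told apart. Between any 2 libraries at most 1.07% of the barcodes of the smaller were shared. The stromal label held in the markers, with fibroblasts making up 7583 of 9020 and 8551 of 9048 cells, but stromal library 1 also held 753 cells with keratin markers of squamous epithelium and library 2 held 38. All intervals cover counting error only.

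The stromal libraries carried most of the transcripts of 8 members. Wnt2, Wnt4, Wnt5a and Rspo3 were each above 30 CPM in both stromal libraries and under 8 CPM in every epithelial library, while Wnt2b was near 3 CPM in both compartments of the assembloid and Wnt3 was an epithelial transcript at very low level. Folds below are log2 differences from edgeR's quasi-likelihood test on summed counts. Their standard errors (SE) were derived as the log2 difference divided by the square root of the F statistic of that test. Adjusted p is the Benjamini-Hochberg value over all genes tested. Against assembloid epithelium all 10 members passed the filter on low counts and 8 were higher in stroma. The 1 lower member was Wnt3, which passed through epithelial libraries alone. Of the 20841 genes tested, 72.5% were called (38.9% higher and 33.6% lower). The median log2 difference was 2.57 for the members and 0.18 for all genes.

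Rspo3, the R-spondin known as a product of the mesenchyme beneath crypts, had 14158 and 18706 UMIs in stromal libraries 1 and 2, or 87.5 and 134 CPM. Assembloid epithelium held 1146 and 913 UMIs (6.50 and 7.69 CPM), and both organoid and both tissue libraries held 0. The groups did not overlap, and stroma stood 4.20 ± 0.27 (SE) log2 units above assembloid epithelium (adjusted p = 2.456e-05, n = 2 libraries a group, edgeR). Fibroblasts captured in assembloid epithelial libraries 1 and 2 held 475 and 706 of those UMIs, and with stroma taken as non-epithelial cells and epithelium as cells gated as epithelial the difference was 6.59 ± 0.82 (adjusted p = 0.0005348). Taking 3 UMIs over a group as the limit that a count of 0 allows, the stromal mean was at least 10353-fold above organoid and at least 3101-fold above tissue epithelium. Rspo1, the family member supplied in organoid media, was measured at 5.34 and 9.0 CPM in stroma and at 1.52 and 1.69 CPM in assembloid epithelium, while organoid and tissue libraries held 0 or 1 UMI each. Its stromal level exceeded that of assembloid epithelium by 2.39 ± 0.42 log2 units (adjusted p = 0.0009934), or 3.08 ± 0.43 over gated cells (adjusted p = 0.0003324). Rspo2 was rare everywhere, with 50 and 71 UMIs in stroma (0.309 and 0.508 CPM), 15 and 13 in assembloid epithelium and 0 in the other 4 libraries. Its difference of 2.30 ± 0.55 (adjusted p = 0.008129) fell to 1.91 without stromal library 2 and was not called there. It was also no longer called with DESeq2 (adjusted p = 0.135) or with at most 5% mitochondrial UMIs (1.00, adjusted p = 0.178). Over gated cells the difference was 3.39 ± 0.58. It is given as a description, because assembloid cells gated as epithelial held only 7 and 5 Rspo2 UMIs.

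Of the Wnt ligands, Wnt5a, known mainly for signaling outside the beta-catenin branch, had 8846 and 6715 UMIs in stroma (54.7 and 48.0 CPM), 277 and 153 in assembloid epithelium (1.57 and 1.29 CPM) and 0 in organoid and tissue libraries. It was 5.38 ± 0.27 log2 units higher in stroma than in assembloid epithelium (adjusted p = 8.597e-06), and 7.51 ± 0.67 higher (adjusted p = 0.0001238) over cells gated as epithelial, which held 77 and 12 of its 277 and 153 UMIs. Its stromal mean was at least 4805-fold and 1439-fold above organoid and tissue epithelium. Wnt2, a canonical ligand of mesenchymal cells, stood at 36.7 and 31.1 CPM in stroma against 0.244 and 0.404 CPM in assembloid epithelium, and no organoid or tissue library held more than 1 UMI. It showed the largest member difference to assembloid epithelium, 6.97 ± 0.32 log2 units over whole libraries (adjusted p = 1.211e-06). Over gated cells the difference was 9.03 ± 0.58. It is given as a description, because only 19 and 2 of the 43 and 48 UMIs lay in epithelial cells. Wnt4 was at 63.2 and 33.7 CPM in stroma, 1.54 and 2.06 in assembloid, 0.528 and 1.53 in organoid and 0.489 and 0.325 in tissue epithelium. Every stromal library lay above every epithelial one, by 5.0 ± 0.45 log2 units over assembloid, 5.94 ± 0.48 over organoid and 7.42 ± 0.54 over tissue (adjusted p = 2.582e-05, 1.11e-05 and 5.502e-06). The 2 stromal libraries differed from each other in Wnt4 more than in Wnt2 or Wnt5a, with a mean of 48.4 ± 20.9 (SD, n = 2) CPM against 33.9 ± 4.0 and 51.4 ± 4.70.

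Wnt6 and Wnt9a were low but still highest in stroma. Wnt6 was measured at 2.71 and 2.03 CPM in stroma and between 0.249 and 0.920 CPM in the 6 epithelial libraries, with the tissue libraries (0.722 and 0.920 CPM) the highest of those. Its excess in stroma was 2.75 ± 0.44 log2 units over assembloid epithelium and 2.08 ± 0.43 over tissue (adjusted p = 0.0005323 and 0.002515). Cells gated as epithelial held only 22 of the 44 and 8 of the 72 Wnt6 UMIs of the assembloid epithelial libraries, and over those cells the excess was 4.67 ± 0.48 (adjusted p = 6.097e-05). Wnt9a stood at 0.940 and 1.03 CPM in stroma and at 0.0426 to 0.362 CPM elsewhere, 1.89 ± 0.57 log2 units above assembloid epithelium (adjusted p = 0.01502). That call was lost without assembloid epithelial library 1 (1.79, adjusted p = 0.0629) and without the 5 highest cells of each gene in each library, a setting chosen after seeing the data (1.94, adjusted p = 0.0548).

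Wnt2b and Wnt3 departed from this order. Wnt2b, another canonical ligand of mesenchymal cells, was at 2.00 and 3.47 CPM in stroma and at 3.49 and 3.63 CPM in assembloid epithelium, a difference of -0.15 ± 0.35 log2 units that missed the threshold (adjusted p = 0.7165). Without the 5 highest cells of each library the direction turned, and Wnt2b was called higher in stroma by 1.37 ± 0.48 (adjusted p = 0.0305). Organoid (0.586 and 0.495 CPM) and tissue epithelium (0.722 and 0.730 CPM) were lower than stroma by 2.59 ± 0.38 and 2.46 ± 0.39 log2 units (adjusted p = 0.0003781 and 0.0005255). Wnt3, the ligand that Paneth cells provide in the small intestine, had 4 and 0 UMIs in stroma but 30 and 39 in assembloid and 61 and 38 in organoid epithelium, and 3 and 0 in tissue. It was lower in stroma than in assembloid epithelium by 3.90 ± 0.97 log2 units and than in organoid epithelium by 4.43 ± 0.97. Wnt3 passed the filter on low counts through these epithelial libraries alone, so its differences are given as a description. Against organoid epithelium Wnt2b, Wnt4, Wnt6 and Wnt9a were higher in stroma (63.7% of all genes were called, 32.9% higher and 30.7% lower). Against tissue the same 4 were higher (70.9% called, 40.2% higher and 30.7% lower) with Wnt3 not called. The other 5 members, Wnt2, Wnt5a and the R-spondins, had at most 2 UMIs over either group, so they passed the filter on low counts through the assembloid libraries alone and their excess in stroma is a description.

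**Figure D1:**
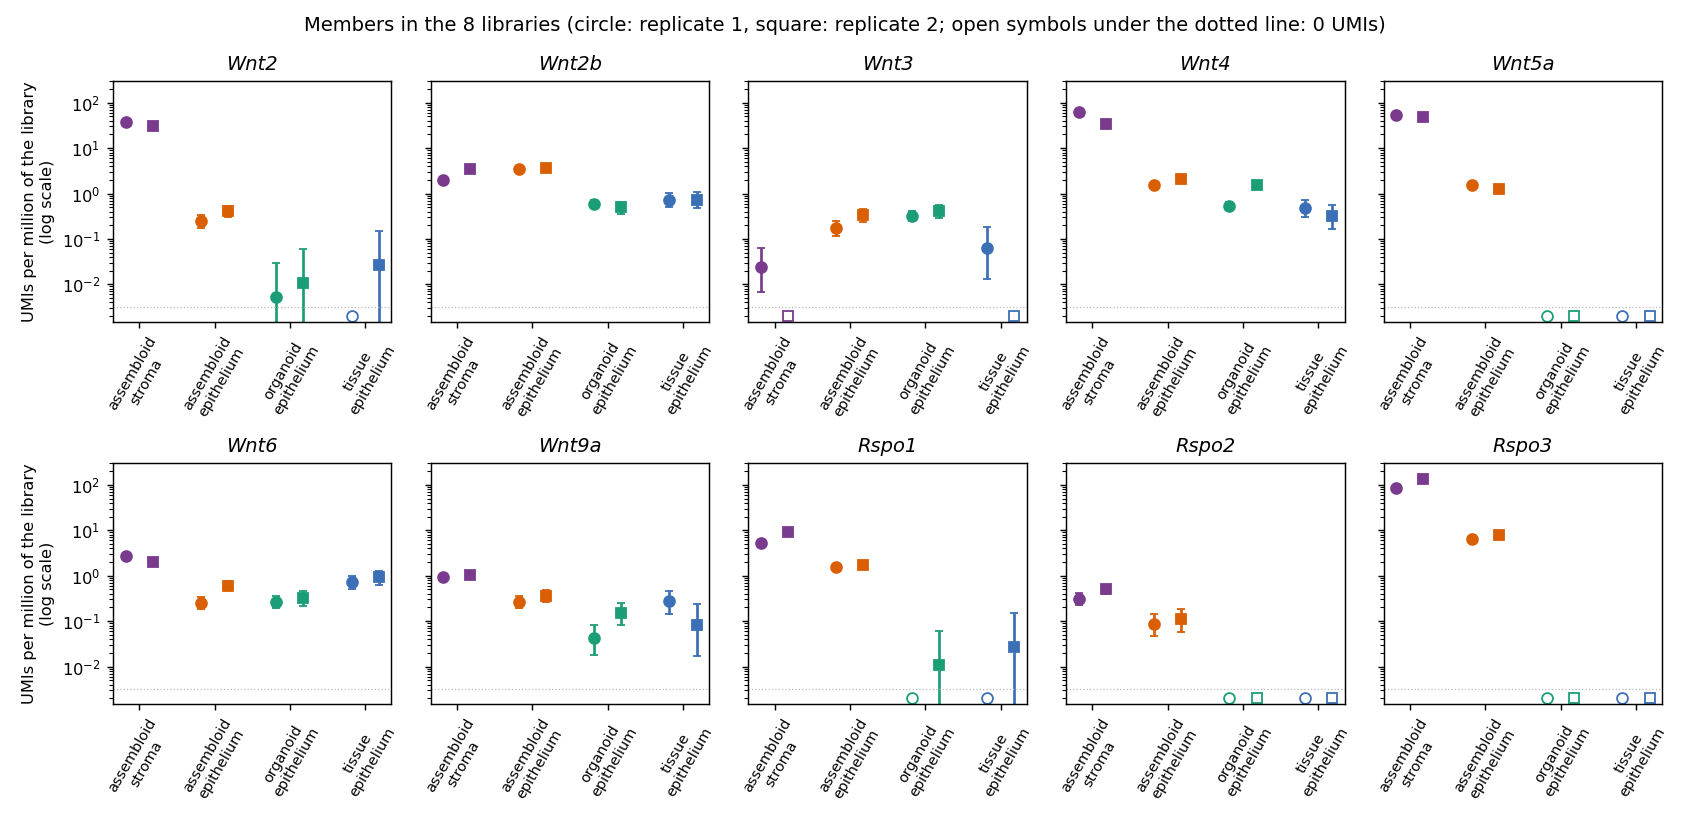
Level of each of the 10 members in the 8 libraries in CPM (log scale), with 1 point per library, bars showing exact 95% Poisson intervals of the count and open symbols marking 0 UMIs. Wnt2, Wnt4, Wnt5a and Rspo3 lie far above every epithelial library in both stromal ones, Wnt2b lies between 2.00 and 3.63 CPM in stroma and assembloid epithelium (where 1 cell of library 2 holds 270 of 431 UMIs), and Wnt3 is higher in assembloid and organoid epithelium than in stroma.

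Within the stromal libraries the cells were divided by fixed marker lists that hold none of the members. A cell was taken as fibroblast when it held at least 4 of 8 fibroblast markers at 20 or more UMIs per 10000, and fibroblasts were then ranked by how many of 10 telocyte and 10 trophocyte markers they held. Cells holding at least 2 more of one list than of the other were called telocyte-like (811 and 874 cells) or trophocyte-like (2891 and 4808 cells), and the remaining 3881 and 2869 lay between. These classes are ranges of a marker count. Of the fibroblasts, 25.9% in either library sat exactly at the dividing difference and 33.9% and 23.3% were 1 marker short of it. Whether they form a continuum or separate types was not tested. Median depth was 16578 and 17991.5 UMIs in telocyte-like and 14574 and 12134 in trophocyte-like cells. Fibroblasts contained 95% and 98.9% of the Rspo3 UMIs of stromal libraries 1 and 2, 96.5% and 99.1% of Wnt2, 82.7% and 96.4% of Wnt5a and 71.6% and 93.6% of Wnt4.

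The members divided between the ends of the fibroblast range. Wnt4, Wnt5a, Wnt2 and Wnt2b were higher in telocyte-like cells and Rspo3 and Wnt9a in trophocyte-like cells, 6 of 9 members tested, where 26.4% of the 14727 genes tested were called (12.3% higher and 14.1% lower). Wnt4 stood at 149 and 114 CPM in telocyte-like cells of libraries 1 and 2 against 38.9 and 16.7 CPM in trophocyte-like cells. Wnt5a followed with 106 and 137 against 45.4 and 30.3 CPM. These differences were 2.28 ± 0.16 and 1.65 ± 0.19 log2 units (adjusted p = 2.065e-05 and 0.0003595, edgeR with the library as a block). The fit also held the fibroblasts between these classes and the glial cells, so its spread was estimated over those as well. Rspo3 ran the other way, with 26.2 and 15.7 CPM in telocyte-like and 136 and 193 CPM in trophocyte-like cells, 8.22-fold lower in the former (log2 -3.04 ± 0.25, adjusted p = 5.846e-05). In all 3 genes the classes did not overlap between libraries, and how many of all genes did so was not counted. The study showed Wnt5a and Rspo3 as markers of these populations on the same samples, so their direction is not independent evidence.

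Wnt2 was at 57.8 and 47.8 CPM in telocyte-like and 36.6 and 20.1 CPM in trophocyte-like cells, a smaller difference of 0.88 ± 0.16 log2 units (adjusted p = 0.004086). Wnt2b was at 5.24 and 5.40 against 1.55 and 3.09 CPM (1.15 ± 0.26, adjusted p = 0.01309). Wnt9a was rare in both classes, at 0.52 and 0.35 CPM in telocyte-like and 0.96 and 1.37 CPM in trophocyte-like cells (-1.5 ± 0.43, adjusted p = 0.03172). With only these 2 classes in the edgeR fit Wnt9a was not called (-1.49 ± 0.46, adjusted p = 0.0644). These 3 were the weaker calls of the set. Without the library block they stood at 0.85, 1.11 and -1.5 log2 units with adjusted p of 0.0918, 0.165 and 0.116, which left 3 of the 6 calls, and a gate demanding 1 more marker removed Wnt2b and Wnt9a (adjusted p = 0.0956 and 0.0782). Wnt6 (0.48 ± 0.29), Rspo1 (0.23 ± 0.21) and Rspo2 (-0.83 ± 0.73) missed the threshold with adjusted p of 0.2503, 0.4501 and 0.4324. Wnt3 was too rare to be tested.

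**Figure D2:**
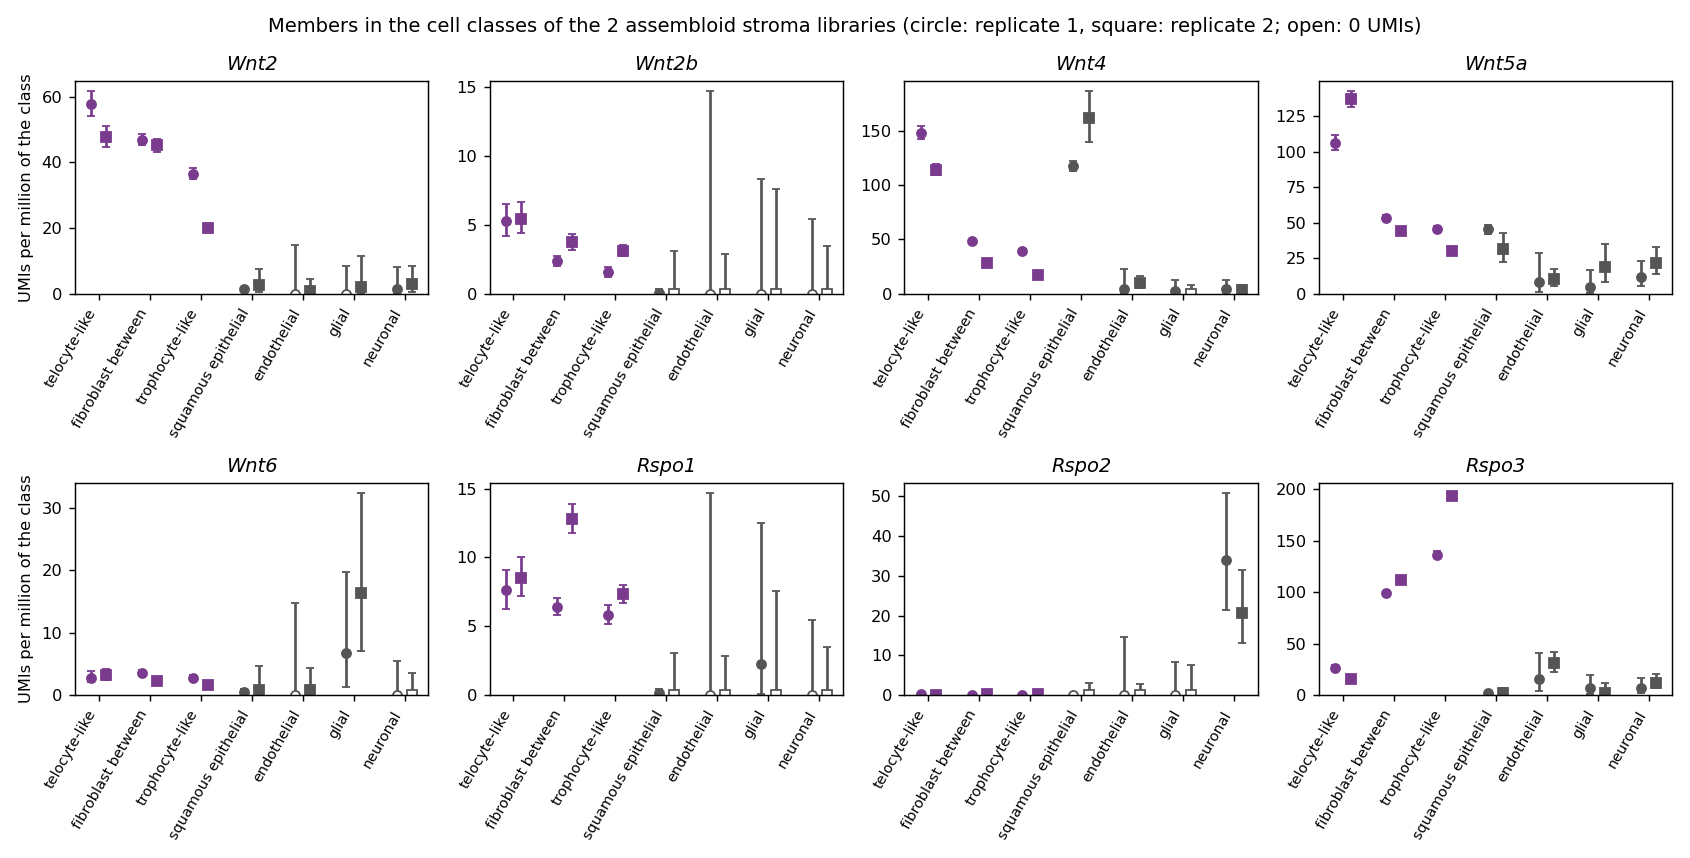
Level of 8 members (CPM of the class, linear axes) in the cell classes of the 2 stromal libraries, with circles for replicate 1, squares for replicate 2, exact 95% Poisson intervals as bars and open symbols at 0 UMIs. Wnt2, Wnt4 and Wnt5a fall from telocyte-like to trophocyte-like cells and Rspo3 rises, Wnt4 is also high in squamous cells, and Rspo2 stands out in neuronal cells at 33.9 and 20.7 CPM.

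The levels also changed across single steps of the marker difference between the end classes. Whether the bins mixed cells of separate types was not tested. Rspo3 fell from 164 CPM at 5 more trophocyte than telocyte markers to 95.7 CPM at a difference of 0 and 7.39 CPM at 5 more telocyte markers in library 1. In library 2 the same steps gave 259, 96.2 and 6.4 CPM. In cells at 6 or more neither library held a single Rspo3 UMI, which is a limit and not a shown absence. The 2 libraries thus gave nearly the same value at the middle and at the telocyte end and differed at the trophocyte end. Wnt5a rose over the same steps from 49.0 through 53.3 to 177 CPM in library 1 and from 29.0 through 46.6 to 179 CPM in library 2. Wnt4 differed between libraries on the trophocyte side. It stayed between 36.8 and 41.8 CPM from a difference of -4 to 0 in library 1, after 55.1 CPM at -5, whereas library 2 went from 14.4 to 29.4 CPM over the same steps. Beyond 0 it climbed in both, to 200 and 121 CPM at 4 more telocyte markers. Wnt2 had a different shape, with its highest values inside the range, 67.3 CPM at a difference of 2 in library 1 and 67.6 CPM at 1 in library 2, and only 36.8 and 23.3 CPM at 6 or more. Rspo1 peaked at a difference of 1 in library 2 (23.6 CPM), where library 1 showed no peak (7.12 CPM).

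**Figure D3:**
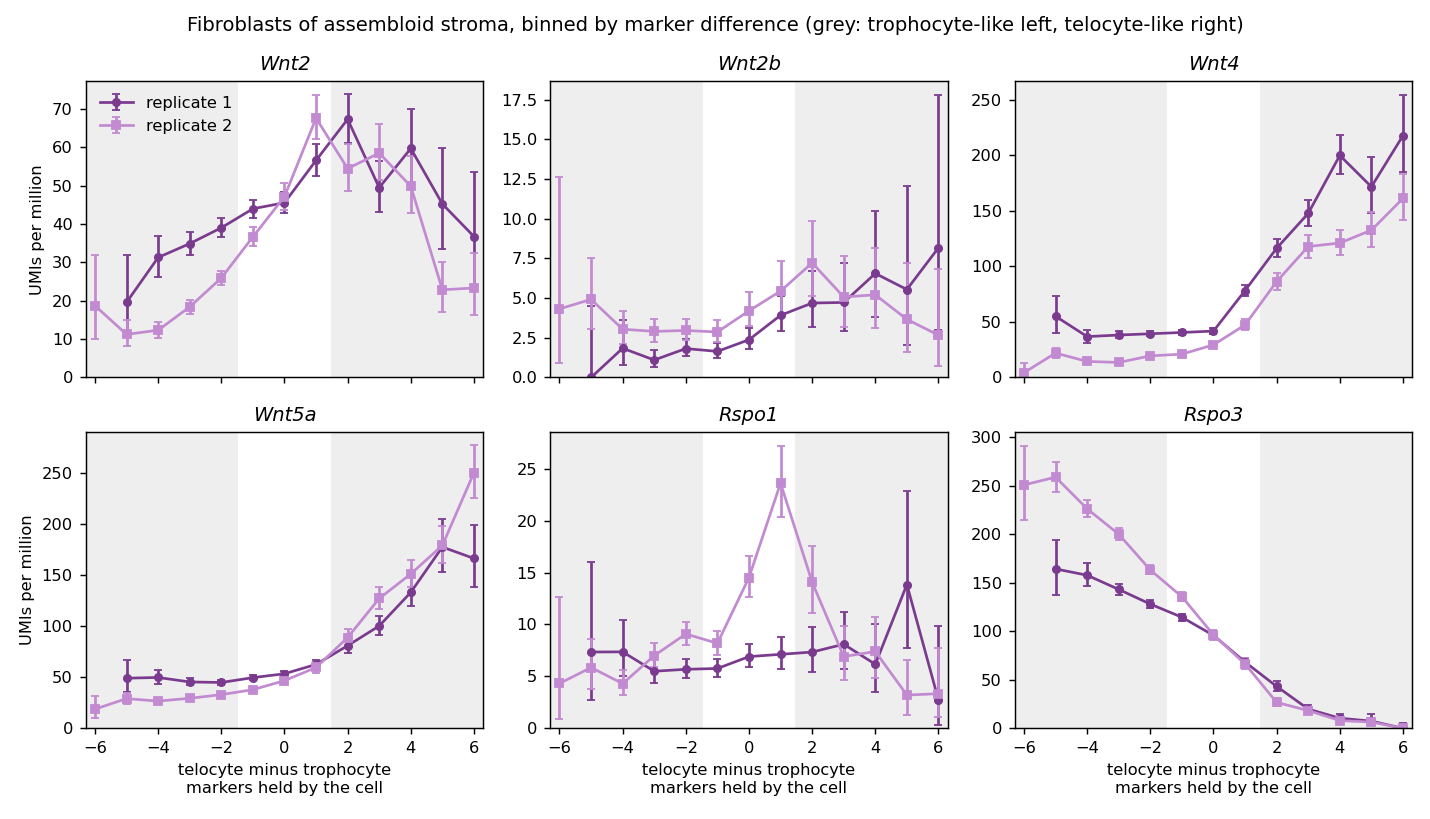
Levels of 6 members (CPM, linear axes) in fibroblasts of the 2 stromal libraries, binned by the number of telocyte minus trophocyte markers a cell held, with the outermost bins pooling 6 or more and bars showing exact 95% Poisson intervals. Rspo3 declines at every step from -5 rightward in both replicates (replicate 2 has 251 CPM at -6 and 259 CPM at -5), Wnt4 and Wnt5a rise, and Wnt2 peaks between.

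To set classes of unequal depth side by side, each cell was thinned to 2000 UMIs. A Rspo3 UMI was then seen in 23.3% and 31.3% of trophocyte-like and 3.21% and 2.75% of telocyte-like cells, and in 0.267% of the squamous cells of library 1. Unthinned, these shares were 68.0% and 77.4% in trophocyte-like and 20.1% and 13.6% in telocyte-like cells. For Wnt4 the thinned shares were 20.6% and 15.2% in telocyte-like and 5.31% and 2.35% in trophocyte-like cells, and for Wnt5a 19.9% and 20.1% against 8.58% and 5.85%. Wnt4 and Rspo3 also tended to occupy different cells. Among fibroblasts thinned to 10000 UMIs (6261 and 6378 cells), Rspo3 was seen in 33.1% and 31.1% of those with a Wnt4 UMI and in 51.9% and 59.0% of those without. Wnt5a went with Wnt4, being present in 43.5% and 46.1% of Wnt4-positive and 35.4% and 28.9% of the other fibroblasts. These shares describe cells of 2 libraries and were not tested.

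Other cells of the stromal libraries contributed particular members. Rspo2 was concentrated in neuronal cells, which carried 23 of 50 and 22 of 71 of its UMIs although only 48 and 80 cells were gated as neuronal, a level of 33.9 and 20.7 CPM against 0.15 and 0.35 CPM in fibroblasts. Classes of 40 or more cells were then admitted, a choice made after seeing the data, and 44.7% of 14589 genes were called. Rspo2 was 6.65 ± 0.55 log2 units higher in neuronal cells than in fibroblasts. Fibroblasts held only 19 and 46 Rspo2 UMIs, so this difference is given as a description. In that fit Wnt9a was called higher, on 3 and 4 UMIs, and Wnt2, Wnt4, Wnt5a and Rspo3 lower. Neuronal cells held 0 UMIs of Wnt2b, Wnt6 and Rspo1. Enteric glial cells (62 and 64 cells) held 1 and 0 UMIs of Wnt4, 0 and 1 of Wnt2, 3 and 1 of Rspo3 and 2 and 9 of Wnt5a. Rspo3 and Wnt5a were called lower than in fibroblasts (adjusted p = 0.003824 and 0.007433, with 27.0% of all genes called and 14.6% lower). Wnt4 and Wnt2 passed the filter on low counts through fibroblasts, so their lower level in glial cells is given as a description. Wnt6 was the exception, at 6.74 and 16.4 CPM on 3 and 8 glial UMIs (2.06 ± 0.66, adjusted p = 0.04546), where 12.4% of genes were called higher, a call lost without the deepest 5% of cells (adjusted p = 0.0575). Endothelial cells (19 and 63) showed Rspo3 at 15.9 and 31.0 CPM, below the fibroblast levels of 104 and 141 CPM, and were too few to be tested.

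The squamous cells of stromal library 1 were a second place of Wnt4. They held 2179 of its 10221 Wnt4 UMIs (21.3%), 837 Wnt5a UMIs and 35 of its 152 Wnt9a UMIs, against 193 Wnt4 UMIs (4.10%) in the 38 squamous cells of library 2. Within the class, Wnt4 was at 118 and 162 CPM and Wnt5a at 45.2 and 31.1 CPM in squamous cells, while Rspo3 was at 2.27 and 2.52 CPM. Per 1000 UMIs of the fibroblast list, squamous cells held 260 and 325 Wnt4 UMIs and the fibroblasts of the same libraries 6.61 and 2.80. Fibroblasts alone gave Wnt4 levels of 56.7 and 33.5 CPM, and in the same fibroblasts the squamous list summed to 97.5 and 6.27 CPM, whose part in the Wnt4 levels was not tested. The classes gated as telocyte-like and trophocyte-like exclude the squamous cells.

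Fibroblasts were also present in the assembloid epithelial libraries (546 and 469 cells), which come from the same kind of culture. Of 9 members tested, Wnt2, Wnt4 and Wnt5a were lower and Rspo1 higher in these fibroblasts than in those of the stromal libraries, where 53.5% of 16592 genes were called (25.9% higher and 27.7% lower). Wnt2 stood at 4.17 and 4.96 CPM against 44.4 and 32.7 CPM, 8.79-fold lower (log2 -3.14 ± 0.24, adjusted p = 0.00042). Wnt4 was at 13.8 and 9.56 against 56.7 and 33.5 CPM (-2.04 ± 0.32, adjusted p = 0.002926) and Wnt5a at 32 and 22 against 56.7 and 49.2 CPM (-1.06 ± 0.21, adjusted p = 0.007353). The 4 values of each of these 3 genes did not overlap between sources, and how many of all genes did so was not counted. Rspo3 was level, at 124 and 125 against 104 and 141 CPM (-0.06 ± 0.20, adjusted p = 0.8307). Rspo1 was at 18.5 and 12.8 against 6.34 and 9.44 CPM (0.89 ± 0.30, adjusted p = 0.04575). That call was lost with no filter on low counts (0.75, adjusted p = 0.1), without the deepest 5% of cells (0.82, 0.0637) and when any of 3 libraries was left out, with 0.72 (adjusted p = 0.0705) without stromal library 1, 0.56 (0.264) without assembloid epithelial library 1 and 1.16 (0.0639) without assembloid epithelial library 2. Wnt2b (0.32 ± 0.36), Wnt6 and Wnt9a were not called. Rspo2, on 3 and 7 UMIs in the captured fibroblasts, differed by 1.97 ± 0.73 (adjusted p = 0.0624), and was called with a replicate block (1.96, 0.044) or with at most 5% mitochondrial UMIs (2.43, 0.0341).

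The order of the classes was preserved for Rspo3 and Wnt4 in the captured fibroblasts but not for Wnt5a. Rspo3 was at 53.8 and 16.9 CPM in their telocyte-like and 162 and 172 CPM in their trophocyte-like cells, and Wnt4 at 51.8 and 22.5 against 4.14 and 3.15 CPM. Wnt5a was at 33.1 and 20.6 against 29.0 and 20.8 CPM, with overlapping intervals. The telocyte-like cells here numbered 74 and 47, and the difference between sources in this order was not tested. Captured fibroblasts were shallower (medians of 6492 and 10930 UMIs against 14947 and 13267), and the part of depth in these differences was not tested. The 8 epithelial markers, all detected, summed to 1058 and 1007 CPM in captured fibroblasts and to 34.4 and 14.4 CPM in those of the stromal libraries, and the epithelium-high list genes Rnf43 (4.25 ± 0.59) and Lgr4 (2.73 ± 0.24) were higher in captured fibroblasts. The 8 fibroblast markers summed to 12036 and 11852 against 8568 and 11957 CPM. The part of epithelial RNA in these differences was not tested, and Cell Ranger version and source cannot be told apart.

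**Figure D4:**
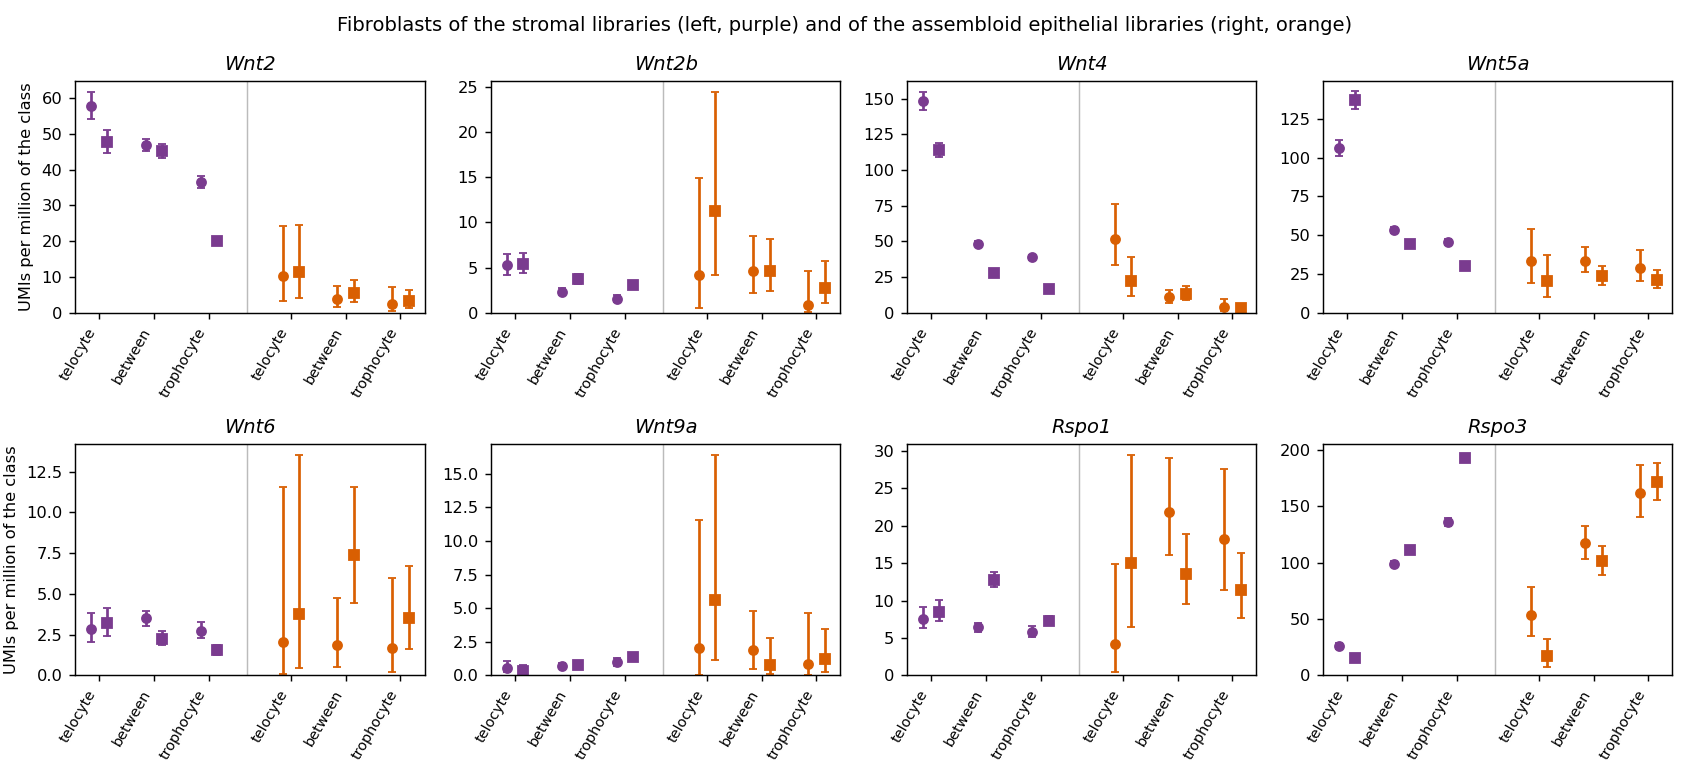
Level of 8 members (CPM of the class, linear axes) in telocyte-like, intermediate and trophocyte-like fibroblasts of the stromal (purple) and assembloid epithelial libraries (orange), with circles for replicate 1, squares for replicate 2 and exact 95% Poisson intervals. Wnt2, Wnt4 and Wnt5a sit lower on the right of the line, Rspo3 keeps its level and its order of classes, and Rspo1 is mostly higher on the right.

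Among epithelial libraries, those of assembloids held the most Wnt2b, Rspo1, Rspo3 and Wnt5a transcripts. Wnt2 and Rspo2 did not pass the filter on low counts. Rspo1, Rspo3 and Wnt5a passed it through the assembloid libraries alone, since each organoid and tissue library held 0 or 1 UMI, so their difference is given as a description. Of the remaining 5 members, Wnt2b, Wnt3 and Wnt4 were higher in assembloid than in tissue epithelium, Wnt6 was lower and Wnt9a was not called, with 49.4% of 19165 genes called (26.5% higher and 22.9% lower). Wnt2b was higher in assembloid epithelium by 2.71 ± 0.37 log2 units over tissue (adjusted p = 0.0007289), a call lost without the 5 highest cells of each library (1.04, adjusted p = 0.196). Wnt4 exceeded tissue by 2.17 ± 0.52 (adjusted p = 0.01004). Wnt3 exceeded it by 2.90 ± 0.87, likewise a description, since tissue held 3 and 0 Wnt3 UMIs and Wnt3 passed the filter through the other groups. The gated classes of the epithelium differed as well, in depth and in number. In tissue libraries 1 and 2 goblet-like cells had medians of 1211 and 2429 UMIs, against 18469 and 13091 in epithelial cells of no named class. The 8 cycling markers summed to 361 and 281 CPM in whole tissue libraries, 734 and 555 in assembloid and 1663 and 1402 in organoid ones. How far the following shares reflect cell types or depth was not tested. Goblet-like cells were 3469 of 4553 and 3140 of 4265 epithelial cells in tissue, 2993 of 26959 and 1288 of 6819 in assembloids and 11 of 4843 and 22 of 7039 in organoids, and cycling cells 29 and 15, 2902 and 867, and 1799 and 1266, and the part of this in the differences was not tested. In cells gated as epithelial, assembloid libraries 1 and 2 held 160 and 108 UMIs of Rspo1, 344 and 47 of Rspo3 and 77 and 12 of Wnt5a. The Wnt4 call was lost without tissue library 1 (2.28, adjusted p = 0.0564) or 2 (2.05, 0.0665). That of Wnt3 was lost without tissue library 2 (2.04, 0.138), with at most 5% mitochondrial UMIs (1.64, 0.19), without organoid library 1 (2.89, 0.0634) or without organoid library 2 (2.90, 0.0654).

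Wnt6 was the 1 member higher in tissue. In cells gated as epithelial it stood at 0.73 and 0.92 CPM in tissue, 0.27 and 0.32 CPM in organoids and 0.14 and 0.07 CPM in assembloids, so that each group lay apart from the next. Assembloid epithelium was lower than tissue by 2.51 ± 0.54 log2 units (adjusted p = 0.00614), whereas the organoid value of -1.26 ± 0.51 against tissue missed the threshold (adjusted p = 0.0729) and passed it without either assembloid library (adjusted p = 0.0296 and 0.0328). Within goblet-like cells alone it was at 0.516 and 0.469 CPM in tissue and 0.133 and 0.163 CPM in assembloids, on 13, 10, 2 and 3 UMIs. In the assembloid epithelial libraries macrophages (123 and 142 cells) held it at 6.39 and 10.9 CPM and fibroblasts at 1.82 and 5.31 CPM.

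Between organoid and tissue epithelium 47.3% of genes were called (24.3% higher), among them the members Wnt3 and Wnt4. Wnt4 was 1.69 ± 0.52 log2 units higher in organoids (0.53 and 1.55 against 0.39 and 0.33 CPM in gated cells, adjusted p = 0.02825). Wnt3 was 3.54 ± 0.85 higher (0.33 and 0.40 against 0.06 and 0 CPM). With 3 and 0 UMIs in tissue, Wnt3 passed the filter on low counts through the other groups, so its difference is given as a description. Both calls were lost with fewer libraries. Wnt4 fell to 0.99 (adjusted p = 0.153) without organoid library 2, and stayed at 1.82 and 1.59 without tissue library 1 or 2 (adjusted p = 0.107 and 0.135). Wnt3 was at 3.51 without organoid library 1 (adjusted p = 0.0604) and at 2.7 without tissue library 2 (0.0665). With at most 5% mitochondrial UMIs neither was called (Wnt3 at 2.44, adjusted p = 0.0563, and Wnt4 at 1.26, 0.101). Against assembloid epithelium, where 52.9% of genes were called (28.6% lower), the organoids were lower in Wnt2b (-2.88 ± 0.36, adjusted p = 0.0005294), while Wnt3, Wnt4, Wnt6 and Wnt9a were not called. The Wnt2b call was lost without the 5 highest cells (-1.15, adjusted p = 0.145), and Wnt6 was called higher in organoids without assembloid epithelial library 1 (1.88, adjusted p = 0.0329).

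The Wnt2b counts of assembloid epithelium, and in part those of Rspo1, rested on few cells. In library 1 a single cell held 171 of 616 Wnt2b UMIs (27.8%), and 8 cells with 10 or more UMIs held 432 (70.1%). In library 2 one cell held 270 of 431 (62.6%) and 3 cells held 330 (76.6%). Both top cells were gated as epithelial, held 7995 and 18806 UMIs in all, at the 75th and 67.5th percentile of depth in their libraries, and had no UMI of another member. In stroma, by contrast, no cell held more than 5 Wnt2b UMIs. Without the 5 highest cells of each library Wnt2b in assembloid epithelium fell to 1.33 and 0.741 CPM. For Rspo1 the top cells held 29 of 268 (10.8%) and 59 of 201 UMIs (29.4%), and 1.08 and 0.859 CPM remained without the 5 highest.

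**Figure D5:**
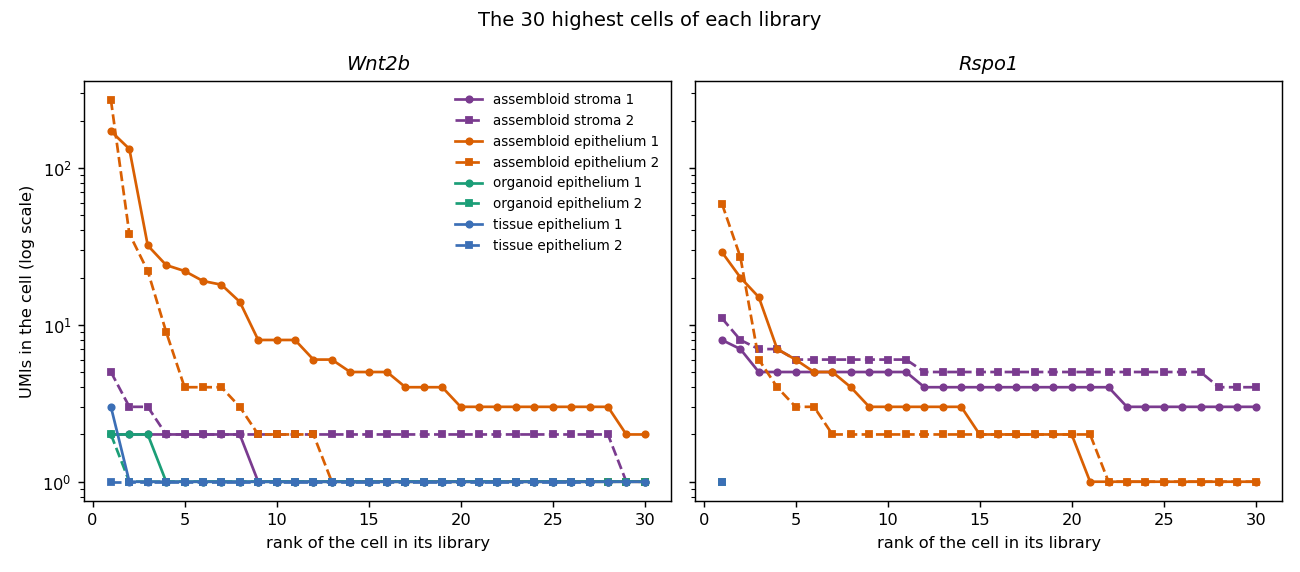
UMIs of Wnt2b and of Rspo1 in the 30 highest cells of each library (log scale) against the rank of the cell, with 1 line per library; cells with 0 UMIs are not drawn. In the 2 assembloid epithelial libraries a few cells reach 171 and 270 Wnt2b UMIs, while no stromal cell exceeds 5.

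Transcripts of the stromal members in epithelial cells were set beside the fibroblast markers in those cells. In assembloid cells gated as epithelial the 8 fibroblast markers summed to 194 and 34.1 CPM in libraries 1 and 2, against 0.811 and 1.21 CPM in organoids and 0.300 and 0.407 CPM in tissue. Rspo3 there was at 2.11 and 0.44 CPM, or 10.9 and 12.9 UMIs per 1000 fibroblast-marker UMIs, close to the 10.3 and 10.5 in fibroblasts of the same libraries. Wnt5a gave 2.44 and 3.29 against 2.66 and 1.85, and Wnt2 0.602 and 0.549 against 0.346 and 0.418. For these 3 members the ratio to fibroblast transcripts was less than 2-fold above that in fibroblasts. The other members of the stroma stood above it, with Wnt2b at 18.6 and 108 against 0.281 and 0.374, Wnt4 at 5.26 and 42.8 against 1.15 and 0.807, and Rspo1 at 5.07 and 29.6 against 1.54 and 1.08. Few cells carried the Wnt2b and Rspo1 ratios, most of all in library 2, where the 5 highest epithelial cells held 343 of 393 Wnt2b, 97 of 108 Rspo1 and 65 of 156 Wnt4 UMIs, and in library 1 they held 381 of 586, 77 of 160 and 14 of 166. The rarer Wnt6, Wnt9a and Rspo2 also stood above the fibroblast ratio, on 5 to 33 UMIs a library, at 0.697 and 2.20 against 0.151 and 0.448, 1.05 and 8.23 against 0.130 and 0.120, and 0.222 and 1.37 against 0.0649 and 0.105. The part of fibroblast RNA in the epithelial levels of Rspo3, Wnt5a and Wnt2 was not tested further.

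Wnt3 UMIs were set against markers of enteroendocrine cells, the hormone-producing cells of the epithelium. In organoid library 1 the level was 0.157 CPM in the 4629 epithelial cells with none of 8 such markers and 94.0 CPM in the 5 cells with 5 or more, which held 11 UMIs. In organoid library 2 it was 0.225 and 52.7 CPM, the latter on 6 UMIs in 11 cells. Assembloid libraries gave 0.0625 and 0.0687 CPM without markers and 11.9 and 9.17 CPM with 5 or more (2 and 8 UMIs in 17 and 46 cells). In tissue library 1 the 39 such cells held 2 UMIs, and in tissue library 2 the 59 such cells held 0, which allows up to 6.95 CPM by the exact Poisson interval. The values of cells with 5 or more markers rest on counts of 0 to 11 UMIs, and 1 UMI in so few cells already exceeds the level of unmarked cells. In assembloid library 1 the cells with 3 or 4 markers (102 and 27 cells) held 0 Wnt3 UMIs, and those with 0 or 1 marker held 9 and 15 of the 27 UMIs in epithelial cells. In assembloid library 2 another 11 of 39 Wnt3 UMIs came from 1 fibroblast.

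The other genes of the pathway were followed as a list of 46, comprising further Wnts, the secretion factors, receptors, the 2 ligases and secreted inhibitors. Against assembloid epithelium 40 could be tested, and stroma was higher in 23 and lower in 10 (of all genes 38.9% were higher and 33.6% lower), with a median log2 difference of 2.03. Of 9 secreted inhibitors tested 8 were higher, among them Dkk2 (6.80 ± 0.37), which blocks Lrp co-receptors, and Sfrp1 (5.79 ± 0.39), which binds Wnts. The R-spondin receptor Lgr4 was lower (-4.15 ± 0.29), as were both ligases. Of the called list genes whose libraries did not overlap, Wnt10a was the highest (8.91 ± 1.07) and Wnt3a the lowest (-5.41 ± 0.80). Both were picked for their extreme difference, so they are given as a description. Wnt10a lay chiefly in stromal library 1 and mostly outside its fibroblasts (counts under other observations). Wls, which carries every Wnt to the cell surface, was at 158 and 178 CPM in stroma and 68.2 and 71.6 CPM in assembloid epithelium (1.5 ± 0.20).

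Between telocyte-like and trophocyte-like cells 2 of 29 tested list genes were higher in the former, Dkk2 (2.12 ± 0.17) and the ligand Wnt5b (1.92 ± 0.17), and 12 were lower, where 12.3% and 14.1% of all genes were. The 12 included 8 of the 15 receptors tested and 4 of 8 inhibitors, with Sfrp4 (-2.04 ± 0.42), Fzd4 (-1.67 ± 0.23) and Lgr5 (-1.48 ± 0.37) the most reduced. Without the library block 5 list genes were called. Telocyte-like cells thus held more Wnt4, Wnt5a and Wnt5b and fewer transcripts of several receptors, next to less Rspo3.

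On the receiving side, in cells gated as epithelial, Lgr5, the stem cell marker and R-spondin receptor, was at 128 and 278 CPM in organoids, 24.2 and 16.2 CPM in tissue and 6.70 and 8.07 CPM in assembloids. Organoids exceeded tissue by 3.51 ± 0.33 and assembloids by 4.57 ± 0.35 log2 units (adjusted p = 0.0001162 and 8.102e-05), and assembloids were below tissue by 1.06 ± 0.30 (log2 -1.06, adjusted p = 0.02017), which was -0.85 (adjusted p = 0.058) without the 5 highest cells of each gene. These groups differ in their shares of cells gated as goblet-like and cycling, with the limits given above, and the part of that was not tested. The ligase Rnf43, a target and inhibitor of the canonical branch, was at 123 and 230 CPM in organoids, 56.2 and 49.7 CPM in tissue and 26.1 and 32.8 CPM in assembloids. Znrf3 was at 59.2 and 117, 70.2 and 60, and 10.9 and 14.5 CPM in the same order. The lowest values of Lgr5, Rnf43 and Znrf3 were thus in assembloids, where Rnf43 was not called against tissue and Znrf3 was (-1.98 ± 0.26, adjusted p = 0.0006033). Of 17 receptors tested, 1 was higher and 8 were lower in assembloid than in tissue epithelium, and over the whole list 10 were higher and 12 lower of 36, where 26.5% and 22.9% of all genes were. The most reduced was Ror1, a receptor of Wnt5a, at 0.578 and 0.384 CPM in assembloids against 99.0 and 99.3 CPM in tissue (-7.25 ± 0.31). Lower receptor levels were not particular to assembloids. In organoid against tissue epithelium 3 of the 17 receptors were higher and 9 lower, with Ror1 at -10.63 ± 0.38. Fzd5, Fzd8, Fzd9 and Lgr4 were called lower than tissue in both cultures. Lgr5 was lower in assembloids only, and Fzd3 and Fzd6, also lower there, were higher in organoids than in assembloids.

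The genes whose levels followed each member most closely over 25 sums of a cell class in a library were found by Pearson's r of log2 values, as a description in which sums of a library share its depth. Rspo3 was followed by Sparcl1 (0.982), Fbn1 (0.970) and Hp (0.966), and Wnt5a by Snai2 (0.964), Ccl11 (0.953) and Hsd11b1 (0.945). Wnt2 was nearest to Tcf21 (0.953), Npr3 (0.941) and Tspan11 (0.939), and Rspo1 to Tnxb (0.948), Gucy1a1 (0.941) and Fgf7 (0.934). Several of these are known as transcripts of fibroblasts, though their levels in each class are not given here. Wnt4 was less closely matched, by Tnfsf11 (0.860), Aldh1a2 (0.845) and Rhox5 (0.840), and Rspo2 by Rgs4 (0.843) and the neuronal transcription factor gene Phox2a (0.830). A sum needed at least 50 cells, so neuronal cells entered only from stromal library 2 (80 cells, against 48 in library 1). Squamous cells entered only from library 1 (753 cells, against 38 in library 2). Wnt3 had no close partner (Lrsam1, 0.639).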

How the data were processed

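The authors deposited raw UMI counts per gene and cell barcode of 8 Chromium Single Cell 3′ v3 libraries, made with Cell Ranger (6.0.1 for the 2 stromal and 7.1.0 for the 6 epithelial libraries per the file headers, 6 per the labels) on mm10. Whether intronic reads were counted is not given in the sources used here. Barcodes with fewer than 500 genes or over 10% mitochondrial UMIs were removed. Total counts per library were 36970661 to 187583982 UMIs, so that 3 UMIs, the limit a count of 0 allows, equal 0.0160 to 0.0811 CPM in the organoid and tissue libraries. No doublet caller was run, and cells holding several marker lists were set aside as mixed.

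Cells were gated by lists of 8 markers (at least 4 held, and 20 UMIs per 10000 for fibroblast, epithelial and squamous cells or 5 for the others), with lists of 10 for the ends of the fibroblast range. Counts summed per library, or per library and class of at least 50 cells, were fitted with edgeR 4.0.16 (filterByExpr, TMM, quasi-likelihood test) in R 4.3.3, with the library as a block where classes of the same library were compared. Genes with an adjusted p under 0.05 over all genes tested were called. The fits were run on simulated counts whose spread between replicates was fixed and not taken from these data. That run does not measure error rates here. The alternatives were DESeq2 1.42.0, no filter on low counts, other cell filters and gates, other fits, and each library left out. Replicates of a group correlated at 0.978 to 0.995 (log2 CPM) and differed by far more than sampling noise.

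The members and gene lists were chosen with earlier results of these data known, and the gate after seeing the data. The named genes were all 10 members, with some of the list genes of largest change and, in epithelium, some of the called receptors and ligases. Cells of 1 library are not replicates, and tests ran over libraries.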

Additional observations from a re-analysis of the deposited data

How the results depend on the processing

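Of 1104 values of 79 member results, 1043 kept their direction and, where a fit was run, their side of the threshold. A further 37 were no longer called, 6 became called and 18 changed sign. The 23 settings include those of the thinning, which apply only to shares of cells. For telocyte-like over trophocyte-like cells a left-out library gave a ratio within the remaining library, judged on direction alone. The number of members called for organoid over tissue epithelium (2) became 0 with at most 5% mitochondrial UMIs and ranged from 0 to 3 when 1 library was left out. That for assembloid over tissue (7) became 4 and ranged from 4 to 8, and that for organoid over assembloid (4) became 2, as it did without the 5 highest cells of each gene, and ranged from 3 to 5. The counts of the last 2 comparisons include Rspo1, Rspo3 and Wnt5a, which passed the filter through assembloid epithelium alone. Those against tissue include Wnt3, which passed it through organoid and assembloid epithelium. List genes called for assembloid over tissue (22) fell to 14 without the 5 highest cells and ranged from 13 to 23 over left-out libraries, with 19 to 28 for organoid over assembloid and 13 to 21 for organoid over tissue. Leaving out a library gave 8 to 9, 10 to 10 and 9 to 9 members called for stroma over assembloid, organoid and tissue epithelium and 3 to 4 for captured fibroblasts. The counts against organoid and tissue epithelium include Wnt2, Wnt5a and the 3 R-spondins, which passed the filter through the assembloid libraries alone. Those against assembloid and organoid epithelium include Wnt3, which passed it through these epithelial libraries alone.

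Without the replicate block, telocyte-like over trophocyte-like cells gave 3 members called in place of 6 and 5 list genes in place of 14. Replicate numbers across groups share only a number, since the correlations of same-numbered deviations ran from -0.152 to 0.184, so no such pairing entered the comparisons between sources.

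Values that changed sign were small or rested on few counts, and none was called in the fit as reported. With a library left out, Wnt2b in stroma over assembloid epithelium ranged from -0.592 to 0.207, Wnt3 in stroma over tissue from -4.723 to 4.024, Wnt4 in organoid over assembloid from -1.172 to 0.023, Wnt2b, Wnt9a and Rspo1 in organoid over tissue from -0.499 to 0.108, from -1.655 to 0.372 and from -3.219 to 2.169, Rspo3 and Wnt6 in captured fibroblasts from -0.175 to 0.251 and from -0.564 to 0.917, and Rspo2 in telocyte-like over trophocyte-like cells from -1.678 to 0.421. With at most 5% mitochondrial UMIs, Wnt2b became 0.103 in stroma over assembloid and 0.291 in organoid over tissue, Wnt9a 0.094 in organoid over tissue and Rspo3 0.142 in captured fibroblasts. Without its 5 highest cells Wnt2b became 1.371 in stroma over assembloid, with every barcode it became 0.328 in organoid over tissue, with at least 1000 genes per cell Rspo1 became 2.015 there, and with DESeq2 Rspo3 became 0.008 in captured fibroblasts. The cause was not tested.

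Shares of cells with a UMI followed depth by construction. Averaged over the 2 stromal libraries, Wnt4 in telocyte-like cells was 58.6% unthinned and 10.4% at 1000 UMIs, and in trophocyte-like cells 14.3% unthinned. Wnt5a was 72.5% and 11.1% (16.9% at 5% mitochondrial UMIs) in telocyte-like and 37.3% and 3.91% in trophocyte-like cells, and Rspo3 16.9% and 2.03% against 72.7% and 15.6%. DESeq2 scaling moved the median of all genes by -0.27 for stroma over assembloid and -0.26 for stroma over tissue epithelium and by 0.17 for glial cells over fibroblasts. At this depth, members at 0 in tissue or organoids are limits and not shown to be absent.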

Other observations

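Concentration of a gene in 1 cell was common in the assembloid epithelial libraries beyond the members. Among genes with at least 50 UMIs, 623 (3.77%) in library 1 and 890 (5.64%) in library 2 had 25% or more of their UMIs in a single cell, against 29 to 87 genes (0.213% to 0.605%) in the other 6 libraries.

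Wnt5b, a Wnt outside the members, was the ligand of the list with high counts in assembloid epithelium, at 2959 and 1078 UMIs (16.8 and 9.08 CPM) against 3.46 and 6.50 CPM in stroma, 1.20 and 1.40 CPM in organoid and 2.04 and 2.11 CPM in tissue epithelium. Wnt7b and Wnt10a were chiefly found in stromal library 1, with 486 and 464 UMIs against 28 and 119 in library 2, and its fibroblasts held only 34 and 26 of them. Wnt7b was also present in organoid epithelium (93 and 56 UMIs) and was at 0 in both tissue libraries. Wnt8b had 63 and 37 UMIs in tissue epithelium and at most 18 in any other library.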
